A study of Arabidopsis thaliana with 36 samples.

Results

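The F1 hybrid Fsc was compared with Sei-0, its seed parent, in leaves taken 1 day post-infiltration (dpi) with the bacterial pathogen Pseudomonas syringae pv. tomato DC3000 (Pst DC3000). The comparison took every gene whose abundance reached 1 FPKM (fragments per kilobase of transcript, scaled to the number of mapped fragments) in Fsc, in Sei-0 or in both, which gave 17929 of the 33557 Arabidopsis thaliana genes in the table. Fsc carries a Sei-0 genome from its mother and a Col-0 genome from its father, and Fcs is the hybrid of the reciprocal cross. Both parents and both hybrids were sampled at 1, 2 and 3 dpi, with 3 libraries in each of 12 groups. All plants were 4 weeks old, grown with 8 h of light, and infiltrated at 100000 c.f.u. per ml, and each library pooled leaves of many plants. Mock-infiltrated leaves are not among the 36 samples, so a value holds both what the genotype does without the pathogen and what it does after infection.

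The authors pooled the 3 libraries of a group into 1 FPKM value per gene. There was therefore 1 value per group, with no spread between replicates, no error and no test, and everything below is a description of these pooled values. A gene was counted as higher or lower when the values differed by at least 2-fold. In whole leaves, fewer cells of a type and less RNA per cell cannot be told apart. The number of reads behind each value is unknown, and the values of different days were normalised separately.

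The plant circadian clock is a set of transcription factors that repress each other in turn. CCA1 and LHY, MYB factors made at dawn, bind a short sequence called the evening element. They hold down genes of the evening such as TOC1, GI, ELF4 and LUX. The products of TOC1, ELF4 and LUX in turn repress the morning genes. In leaves the clock times starch metabolism, photosynthesis and part of the defence response. Resistance to Pst DC3000, which grows on living tissue, runs largely through salicylic acid (SA): ICS1 makes its precursor, EDS5 exports it from the plastid, CBP60g and SARD1 drive ICS1, and PAD4 and EDS1 act upstream. Pst DC3000 also makes coronatine, a mimic of jasmonate, a hormone that acts against SA.

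Evening and morning clock genes were among the lists with the highest and the lowest median ratios at 1 dpi, so the promoters of evening-phased genes are shown first. Each runs from 250 bases before to the first 50 bases of the annotated gene (RefSeq, build TAIR10.1), 5′ to 3′, with every evening element (AAAATATCT, on either strand) in capitals. FKF1 is a light receptor that sets flowering time, PRR5, TOC1 and LUX are repressors inside the clock, and GRP7 is an RNA-binding protein under clock control.
FKF1 (chr1:25508389-25508688, plus strand): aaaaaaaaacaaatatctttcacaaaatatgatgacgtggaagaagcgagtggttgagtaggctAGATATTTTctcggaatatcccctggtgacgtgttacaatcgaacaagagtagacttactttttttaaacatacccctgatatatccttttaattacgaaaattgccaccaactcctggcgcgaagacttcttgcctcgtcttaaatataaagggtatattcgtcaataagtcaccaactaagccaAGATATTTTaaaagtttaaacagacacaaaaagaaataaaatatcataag
PRR5 (chr5:8358497-8358796, minus strand): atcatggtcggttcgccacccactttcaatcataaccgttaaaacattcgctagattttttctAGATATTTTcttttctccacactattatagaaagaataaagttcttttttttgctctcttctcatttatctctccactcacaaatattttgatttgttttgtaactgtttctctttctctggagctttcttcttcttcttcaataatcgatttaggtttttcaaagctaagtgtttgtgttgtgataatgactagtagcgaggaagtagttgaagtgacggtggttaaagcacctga
TOC1 (chr5:24674713-24675012, plus strand): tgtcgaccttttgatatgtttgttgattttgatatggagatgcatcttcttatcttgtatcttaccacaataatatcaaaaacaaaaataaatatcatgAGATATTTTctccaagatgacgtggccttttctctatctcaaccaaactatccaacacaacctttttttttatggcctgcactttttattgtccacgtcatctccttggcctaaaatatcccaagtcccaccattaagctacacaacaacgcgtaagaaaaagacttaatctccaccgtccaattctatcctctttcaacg
LUX (chr3:17182792-17183091, plus strand): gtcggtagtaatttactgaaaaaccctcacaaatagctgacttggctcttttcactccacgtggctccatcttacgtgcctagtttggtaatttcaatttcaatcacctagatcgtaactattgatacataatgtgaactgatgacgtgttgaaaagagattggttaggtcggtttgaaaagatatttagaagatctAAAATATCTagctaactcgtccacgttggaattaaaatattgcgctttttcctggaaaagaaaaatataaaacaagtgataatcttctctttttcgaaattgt
GRP7 (chr2:9266508-9266807, minus strand): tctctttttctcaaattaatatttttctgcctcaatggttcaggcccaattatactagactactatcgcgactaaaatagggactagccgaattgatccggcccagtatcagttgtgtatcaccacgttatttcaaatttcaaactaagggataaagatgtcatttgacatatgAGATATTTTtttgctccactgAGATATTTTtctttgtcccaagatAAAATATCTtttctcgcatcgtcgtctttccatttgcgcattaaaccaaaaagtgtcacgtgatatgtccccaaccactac
GRP7 held 3 evening elements, FKF1 held 2, and PRR5, TOC1 and LUX held 1 each. The sequences are those of Col-0, the reference accession. The Sei-0 alleles were not used here.

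Among the 17929 genes, 1429 were at least 2-fold higher in Fsc than in Sei-0 (7.97%) and 1254 were at least 2-fold lower (6.99%). The median log2 ratio was -0.01, and 12615 genes (70.4%) lay within 1.5-fold of equality. The 2 sides differed at the extremes: 325 genes were at least 8-fold higher in Fsc and 68 at least 8-fold lower. Scaling the groups to the same FPKM sum, which moved all log2 ratios up by 0.21, gave 1871 higher and 853 lower genes, or 68.7% higher among those called against 53.3% as deposited. The sums were 1080678 in Sei-0 and 935587 in Fsc. AT2G01021, a gene of unknown function with the highest value in both groups, stood at 102404 FPKM in Sei-0 and 30222 FPKM in Fsc. The other 4 most abundant genes, which were the same in both groups, lay within 1.5-fold of equality. They were MT1A, a metallothionein, AT2G25510, RBCS1A and LHCB1.3.

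**Figure D1:**
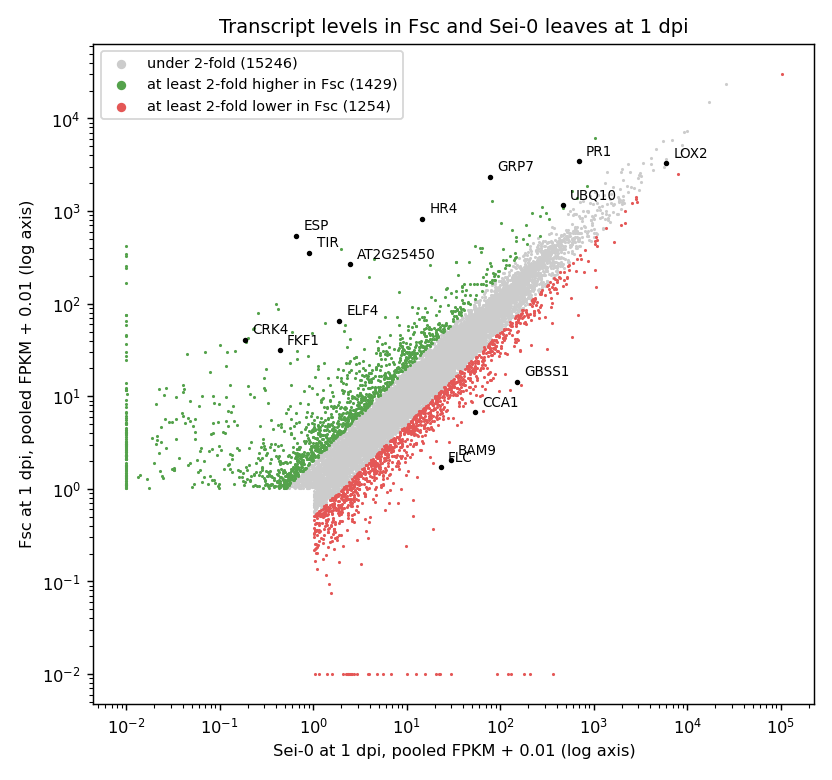
Pooled FPKM of each of the 17929 genes in Sei-0 (x axis) and Fsc (y axis) at 1 dpi, both on log axes after adding 0.01; green points are at least 2-fold higher and red points at least 2-fold lower in Fsc, and black points are named genes. The cloud at the left edge, genes near 0 in Sei-0, is denser than the one along the bottom, genes near 0 in Fsc.

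Clock genes stood apart in opposite directions by their time of day. All 12 genes of the morning list were lower in Fsc, 7 of them by at least 2-fold, with a median log2 ratio of -1.19 against -0.01 over all genes. Of the 12 genes of the evening list, 9 were at least 2-fold higher and none was 2-fold lower, with a median log2 ratio of 1.81. The shares over all genes were 7.97% higher and 6.99% lower, and each list count below can be read against them. With the same sum, 1871 of the 17929 genes were higher and 853 lower. Under the scaling to the same sum, 6 morning genes stayed at least 2-fold lower and the 9 evening genes were as before.

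CCA1 stood at 54.3 FPKM in Sei-0 and 6.73 FPKM in Fsc, 8.06-fold lower. LHY, its partner, stood at 34.7 FPKM in Sei-0 and 4.87 FPKM in Fsc. RVE8, a related MYB factor that activates evening genes, was 4.12-fold lower at 13 FPKM in Fsc. Their co-activator LNK2 was lower as well, at 112 FPKM in Sei-0 and 29.3 FPKM in Fsc. PRR9, the first of the pseudo-response regulators to appear in the day, stood at 20.8 FPKM in Sei-0 and 8.74 FPKM in Fsc. RVE1 and RVE4, the remaining members past 2-fold, were 6.73-fold and 2.2-fold lower, and RVE1 was a low-abundance gene that overlaps another annotated gene.

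On the evening side, FKF1 had the largest ratio, with 0.43 FPKM in Sei-0 and 31.4 FPKM in Fsc. ELF4 stood at 1.9 FPKM in Sei-0 and 65.5 FPKM in Fsc, and LUX at 2.26 and 23 FPKM. These last 2 genes encode parts of the evening complex, a repressor of growth and of morning genes, whose remaining part, ELF3, stood at 6.53 FPKM in Sei-0 and 17.7 FPKM in Fsc. TOC1 was 3.99-fold higher, at 11.7 against 46.8 FPKM. PRR5 and PRR3, relatives of TOC1, were 8.57-fold and 17.9-fold higher. GI, which works with FKF1 in day-length sensing, stood at 10.6 FPKM in Sei-0 and 32.8 FPKM in Fsc. The members under 2-fold were ZTL and LKP2, light receptors related to FKF1, and CHE, which represses CCA1. FKF1, LUX and ELF3 each overlap an annotated neighbour, whose reads could not be told apart without strand.

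The outputs of the clock split by direction too. Of the 10 members measured in the list of clock outputs and day-length genes, 2 were higher and 7 lower. GRP7 stood at 77.2 FPKM in Sei-0 and 2342 FPKM in Fsc, 30.3-fold higher, and its close relative GRP8 was 4.38-fold higher. Reads of GRP7 and GRP8 can be hard to separate. The lower members were the flowering repressors CDF1 and CDF2, AT1G69570, annotated as a Dof-type zinc finger gene, and COL1, COL2, BBX18 and BBX19, which encode zinc finger proteins of the CONSTANS kind. COL1, for example, stood at 56.5 FPKM in Sei-0 and 15.7 FPKM in Fsc.

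For these genes the levels of all lines at 1 dpi can be set side by side, with the caution that every ratio to Sei-0 shares the same Sei-0 libraries. CCA1 stood at 115 FPKM in Col-0, 54.3 FPKM in Sei-0, 15.6 FPKM in Fcs and 6.73 FPKM in Fsc. ELF4 took the reverse order, with 0.879 FPKM in Col-0, 1.9 FPKM in Sei-0, 11.7 FPKM in Fcs and 65.5 FPKM in Fsc. For both genes the Fsc value lay beyond both parents' values, and Fcs, which has the same nuclear genome, lay between Sei-0 and Fsc. The hour of the day at which each group was harvested is not given in the sources used here, and a difference of hour between groups cannot be told apart from a difference between genotypes.

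**Figure D2:**
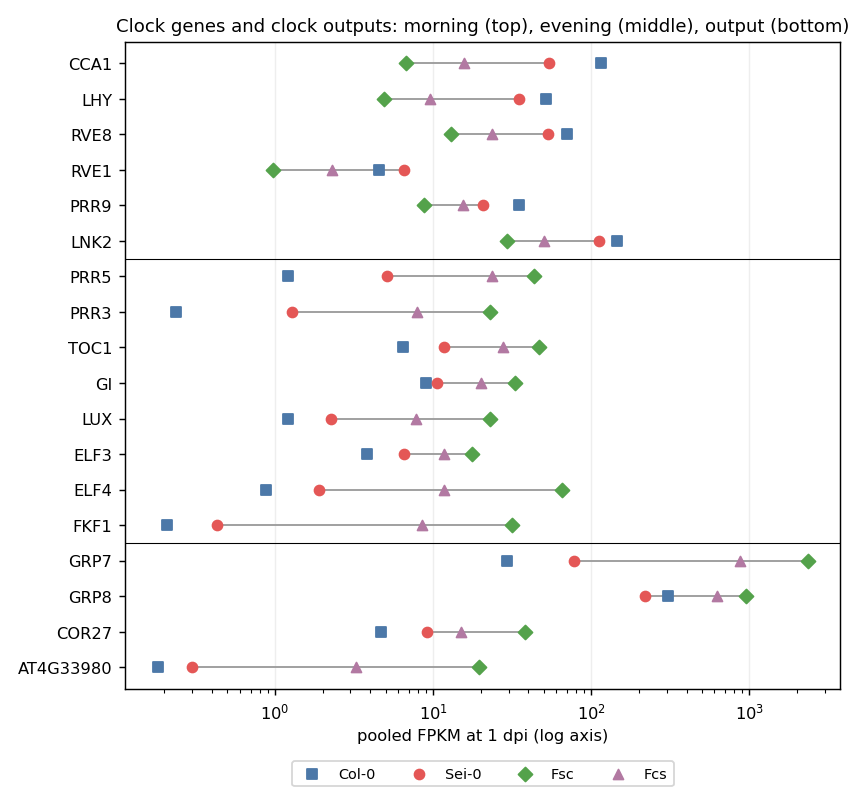
Pooled FPKM at 1 dpi (x axis, log) of 18 genes, with morning genes in the upper block, evening genes in the middle block and clock outputs in the lower block; squares are Col-0, circles Sei-0, diamonds Fsc and triangles Fcs, and a line joins Sei-0 with Fsc. In the upper block Fsc has the lowest value of the 4 groups and in the other blocks the highest.

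Evening elements were also counted over promoters of the same 300-base window. AAAATATCT occurred on either strand in 3.22% of the 17309 promoters of protein-coding genes in the comparison, in 8.65% of the 1307 promoters of genes higher in Fsc, and in 2.18% of the 1149 promoters of genes lower in Fsc. The G-box, CACGTG, which light and clock factors bind, was found in 9.17%, 6.73% and 13.1% of these promoters, in the same order. In the clock lists themselves, 5 of 12 evening promoters held an evening element, and 9 of 12 morning promoters held a G-box. The motifs also occurred the other way round, with an evening element in 2 of 12 morning promoters and a G-box in 2 of 12 evening promoters (16.7% each). All 5 promoters printed above hold an evening element, unlike most of the evening list. Motifs linked to defence differed less between these sets of promoters. The W-box core TTGAC, bound by WRKY factors, was in 51.3%, 52.1% and 46.7% of all, higher and lower promoters. GAAATTT, the core of the site bound by CBP60g and SARD1, was in 14.8%, 16.1% and 12.5%, and TGACG, bound by TGA factors, in 24%, 24.2% and 19.8%. TTGAC and TGACG share bases where they overlap. A match in such a window is a description of its letters and not evidence of binding.

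Cold- and drought-response genes, many of them under the clock as well, leaned higher in Fsc. Of 23 measured members of the abscisic acid, cold and drought list, 10 were higher and 2 lower, with a median log2 ratio of 0.84. The shares of all genes were 7.97% and 6.99%. With the same sum 12 members were higher and 1 lower. The largest ratio was that of AT4G33980, at 0.301 FPKM in Sei-0 and 19.6 FPKM in Fsc. COR27, a cold- and clock-regulated gene, stood at 9.2 FPKM in Sei-0 and 38.2 FPKM in Fsc, and COR15B, a protein that protects chloroplast membranes from freezing, at 62.3 and 363 FPKM. CBF3 and CBF1, factors that switch on cold genes, were 3.92-fold and 3.41-fold higher at low levels. Against the direction of the list, RAB18 and RD29B, classical abscisic acid markers, were 2.35-fold and 2.22-fold lower.

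The second pattern was a set of genes with far less signal in Sei-0 than in Fsc. The 325 genes at least 8-fold higher in Fsc had a median of 0.048 FPKM in Sei-0, 4.57 FPKM in Fsc, 4.05 FPKM in Fcs and 5.11 FPKM in Col-0. Of these genes, 188 (57.8%) were at least 8-fold higher in Fsc on all 3 days, 2 and 3 dpi being measured in other libraries. The 68 genes at least 8-fold lower had medians of 0.0746 FPKM in Fsc and 7.41 FPKM in Sei-0, and 8 of them (11.8%) were so on all 3 days. A low median in the lower group follows from how both sets were chosen. Reads were aligned to the Col-0 genome. A Sei-0 allele that is missing or too diverged for its reads to align cannot be told apart here from one that is transcribed less.

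Glucosinolates are sulphur compounds that leaf tissue turns into toxins when it is damaged, and accessions differ in which products they make. In the list of side-chain and breakdown genes, 5 of 8 members were higher in Fsc, 1 was lower, and the median log2 ratio was 4.92. ESP, the epithiospecifier protein, which steers breakdown away from isothiocyanates, stood at 0.652 FPKM in Sei-0 and 544 FPKM in Fsc. The level in Fsc was also above the 76.7 FPKM of Col-0 and the 14.7 FPKM of Fcs. AT2G25450, annotated as a 2-oxoglutarate-dependent oxygenase, stood at 2.46 FPKM in Sei-0 and 268 FPKM in Fsc. The myrosinase gene TGG2 stood at 0.965 and 48 FPKM, while its neighbour TGG1 was alike in both, at 129.9 and 152 FPKM. ESM1, which opposes ESP, stood at 1.31 and 62 FPKM.

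AOP2, which makes alkenyl side chains, was low in both groups, at 0.142 FPKM in Sei-0 and 2.74 FPKM in Fsc, against 44.8 FPKM in Col-0. Its tandem relative AOP3, which makes hydroxyalkyl side chains, stood at 42.8 FPKM in Sei-0, 29.9 FPKM in Fsc and 0.386 FPKM in Col-0. NSP1, which directs breakdown to nitriles, was the lower member, at 382 FPKM in Sei-0 and 148 FPKM in Fsc. Of 17 measured genes for synthesis of the aliphatic core, 5 were lower and 1, the regulator MYB29, was higher. The shares of all genes were 6.99% lower and 7.97% higher. MYB29 stood at 0.0113 FPKM in Sei-0 and 3.39 FPKM in Fsc. The lower members were MAM3, BCAT4, CYP79F2, SOT17 and FMOGS-OX1, and MAM3, which elongates the chain, stood at 53.8 and 18.5 FPKM. With the groups scaled to the same sum, 2 of 17 were lower and 2 higher. The list did not keep this direction on later days. At 2 dpi 3 of 18 were higher and 1 lower, and at 3 dpi 2 of 17 were higher and none lower.

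Some immune receptors and receptor kinases were also higher in Fsc, from levels in Sei-0 that ran from near 0 to well expressed. The NB-LRR list holds receptors that recognise pathogen proteins inside the cell, helper receptors, and HR3 and HR4, which are not NB-LRR receptors. Of its 28 measured members, 8 were higher in Fsc and none was lower, against 7.97% and 6.99% of all genes. The median log2 ratio was 0.26. HR4, a relative of the mildew resistance gene RPW8, stood at 14.7 FPKM in Sei-0 and 825 FPKM in Fsc, while its neighbour HR3 stood at 112 and 75.8 FPKM. RPP4 and RPP5, which lie in one cluster on chromosome 4 and confer resistance to downy mildew, stood at 12.8 and 10.9 FPKM in Sei-0 and 79.1 and 42.4 FPKM in Fsc. SNC1 of the same cluster was 1.51-fold higher, under the threshold. Members of such clusters are near-identical in places, so their reads may be shared.

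AT1G58602, annotated as an LRR and NB-ARC disease resistance protein, stood at 11.4 FPKM in Sei-0 and 56 FPKM in Fsc. ADR1, a helper receptor that passes on signals of many others, was 7.18-fold higher, from 1.56 FPKM in Sei-0 to 11.2 FPKM in Fsc. CHS3 was near 0 in Sei-0, at 0.0209 FPKM, and stood at 5.22 FPKM in Fsc. The receptors RPM1, RPS2 and RPS4, which recognise effectors of Pseudomonas, and ZAR1 were within 1.5-fold of equality. For RPM1 the values were 6.1 and 6.45 FPKM.

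Among genes outside the lists, TIR (AT1G72930, chr1:27439240-27440464), a Toll/interleukin-1 receptor-like protein, stood at 0.902 FPKM in Sei-0 and 355 FPKM in Fsc. AT5G45490, annotated as a nucleoside triphosphate hydrolase, stood at 0.247 and 78.9 FPKM. AT1G66100, a thionin, stood at 1.99 FPKM in Sei-0, 393 FPKM in Fsc and 2980.2 FPKM in Col-0. Unlike TIR, it was far lower in Fsc on later days, with 5.15 FPKM at 2 dpi and 26.6 FPKM at 3 dpi. AT4G16880 (chr4:9495983-9497313), a leucine-rich repeat gene of the RPP4 cluster, stood at 0.0906 FPKM in Sei-0 and 36 FPKM in Fsc.

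Cysteine-rich and wall-associated receptor kinases, CRKs and WAKs, sit at the cell surface, and many are induced by SA and pathogens. Of 28 measured, 7 were higher in Fsc and none was lower, against 7.97% and 6.99% of all genes. The median log2 ratio was 0.45. CRK4, CRK21 and CRK22 were near 0 in Sei-0. Their values were 0.174, 0.0169 and 0.0309 FPKM in Sei-0 and 40.8, 2.74 and 11.1 FPKM in Fsc. The other 4, CRK7, CRK13, CRK18 and WAK3, were well expressed in both lines, and CRK13 stood at 84.1 FPKM in Sei-0 and 213 FPKM in Fsc.

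**Figure D3:**
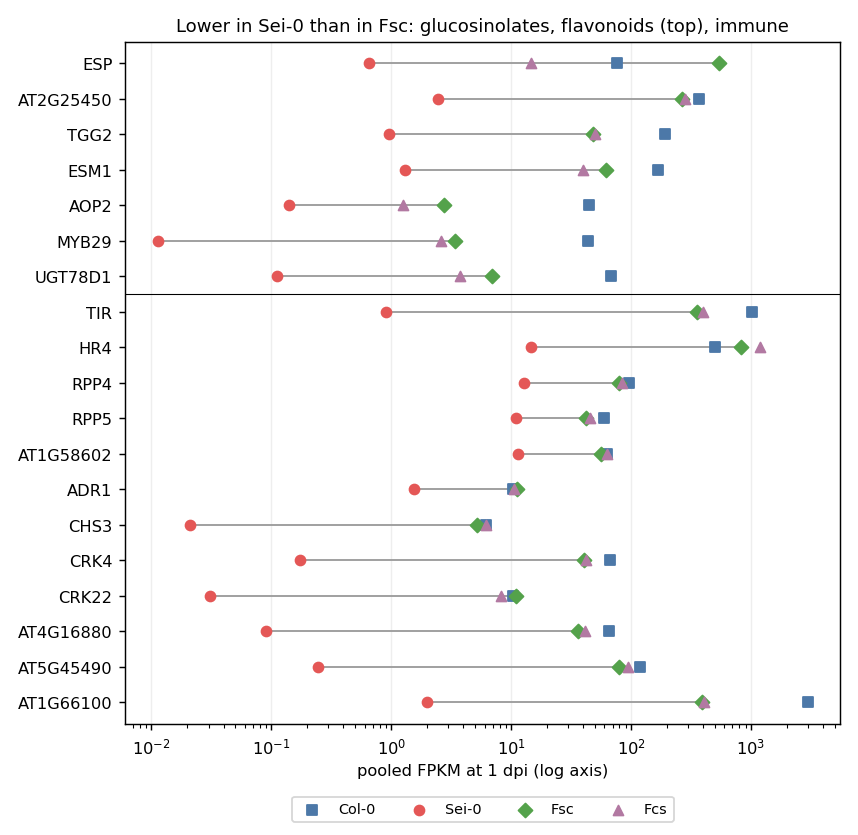
Pooled FPKM at 1 dpi (x axis, log) of 19 genes that were lower in Sei-0 than in Fsc, with glucosinolate and flavonoid genes in the upper block and immune genes in the lower block; squares are Col-0, circles Sei-0, diamonds Fsc and triangles Fcs, and a line joins Sei-0 with Fsc. Sei-0 is lowest for every gene drawn, and ESP is the gene whose Fsc and Fcs values lie farthest apart, at 544 and 14.7 FPKM.

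At the far end, 33 genes reached 10 FPKM in Fsc with under 0.1 FPKM in Sei-0, and 13 did so the other way. Of the 17 protein-coding genes among the 33, 14 were also under 0.1 FPKM in Sei-0 at both 2 and 3 dpi, and 13 reached 10 FPKM in Col-0. AT3G13240, for instance, was listed at 0 in Sei-0 on all 3 days and stood at 59.3, 63.4 and 58.2 FPKM in Fsc. AT5G66053 was likewise listed at 0 in Sei-0 on each day, against 324 FPKM in Fsc at 1 dpi. The 16 other genes included 8 snoRNA genes, and 7 of the 16 were under 0.1 FPKM in Sei-0 on both later days.

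Of the 13 genes seen only in Sei-0 at this level, 5 were protein-coding and 5 were snoRNAs. NUDT24, a nudix hydrolase among the 15 lowest ratios, stood at 19.2 FPKM in Sei-0 and 0.36 FPKM in Fsc at 1 dpi, but at 0.463 FPKM in Sei-0 at 2 dpi. AT1G66860, a glutamine amidotransferase-like protein, kept its direction, with 167 and 13.2 FPKM at 1 dpi and 34 and 0.658 FPKM at 3 dpi. Short RNAs filled much of both ends: of 35 snoRNA genes in the comparison, 12 were higher and 11 lower. AT2G35744, a snoRNA, was listed at 0 in Sei-0 at 1 dpi and stood at 345 FPKM in Fsc, yet stood at 5250.0 FPKM in Sei-0 at 2 dpi. Of genes spanning under 300 bases, 27.2% were higher and 33.3% lower, against 7.55% and 6.64% of protein-coding genes.

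The genes of SA synthesis, on which the study centred, were moderately higher in Fsc at 1 dpi. Of the 13 members, 9 had ratios above 1, 2 were at least 2-fold higher, none was 2-fold lower, and the median log2 ratio was 0.57. Over all genes 7.97% were higher and 6.99% lower. CBP60g stood at 71.5 FPKM in Sei-0 and 239 FPKM in Fsc, 3.34-fold higher. PBS3, which joins glutamate to the SA precursor, stood at 265 FPKM in Sei-0 and 539.7 FPKM in Fsc, 2.04-fold higher. The remaining genes of the pathway were under 2-fold.

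SARD1 stood at 183 FPKM in Sei-0 and 304 FPKM in Fsc, ICS1 at 165 and 245 FPKM, and EDS5 at 257 and 399 FPKM. Their ratios were 1.67, 1.49 and 1.55. PAD4 was 1.87-fold higher, at 210.4 and 393 FPKM, and passed 2-fold under the scaling to the same sum. EDS1 had a ratio of 1.02, at 85 FPKM in Sei-0 and 86.6 FPKM in Fsc. ICS2, a minor isochorismate synthase, was low, at 3.74 and 2.47 FPKM. In Col-0 at 1 dpi, ICS1 stood at 40.4 FPKM and PAD4 at 72.3 FPKM, below the values of both Sei-0 and Fsc.

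Downstream of SA, 4 of 21 response genes were at least 2-fold higher, against 7.97% of all genes. None was lower, and the median log2 ratio was 0.37. PR1, the standard marker of SA signalling, stood at 694 FPKM in Sei-0 and 3437 FPKM in Fsc, 4.95-fold higher. PR5, a thaumatin-like protein, stood at 60.9 and 399 FPKM, 6.55-fold higher. The PR genes differed from each other, since PR2, a glucanase, was 1.27-fold higher, at 277 and 350.3 FPKM. AIG1, induced by bacterial effectors, stood at 277 FPKM in Sei-0 and 1112 FPKM in Fsc, and GRXS13, a glutaredoxin, at 96.9 and 226 FPKM. The SA receptor gene NPR1 and the factor gene WRKY70 were alike in both lines, with 46.6 and 43.4 FPKM for NPR1.

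AZI1 and its neighbours on chromosome 4 encode lipid transfer-like proteins, and AZI1 takes part in priming of systemic defence. Of the 5 members of this list, 4 were higher in Fsc. AZI1 stood at 51.9 FPKM in Sei-0 and 161 FPKM in Fsc, EARLI1 at 107 and 296 FPKM, and AT4G12490 at 103 and 737 FPKM. AT4G12500 was 3.96-fold higher. DIR1, a lipid transfer protein needed for systemic resistance but encoded elsewhere, was not, at 15.7 and 13.2 FPKM. These neighbours are close in sequence and may share reads.

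Systemic resistance also depends on pipecolic acid, made by ALD1 and hydroxylated by FMO1. Of 8 measured genes for pipecolic acid and SA conjugation, 1 was higher and 1 lower, against 7.97% and 6.99% of all genes. The higher gene, AT5G52810, annotated with an NAD(P)-binding Rossmann fold, stood at 27.9 FPKM in Sei-0 and 97.6 FPKM in Fsc. The lower one, AT4G10500, annotated as a 2-oxoglutarate-dependent oxygenase, stood at 81.7 and 27.6 FPKM. ALD1 and FMO1 were 1.41-fold and 1.28-fold higher.

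In pattern-triggered immunity, the response to conserved bacterial molecules, 5 of 25 genes were higher and none was lower. The shares of all genes were 7.97% and 6.99%, and the median log2 ratio of the list was 0.07. BAP2 and BAP1, which restrain cell death, stood at 80.4 and 95.2 FPKM in Sei-0 and 255 and 227 FPKM in Fsc. FRK1, a kinase induced by flagellin, was 2.56-fold higher. The flagellin receptor gene FLS2 was 2.68-fold higher, at 1.38 and 3.69 FPKM, and WRKY29 7.47-fold higher at low levels. Among camalexin and indole glucosinolate genes, 2 of 15 were higher and 2 lower, against 7.97% and 6.99% of all genes. CYP71A12 and MYB122 were higher, and CYP79B3 and MYB34 lower. CYP79B3, which starts both pathways from tryptophan, stood at 508 FPKM in Sei-0 and 164 FPKM in Fsc.

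Jasmonate genes lay on the other side. Of 24 measured response genes, 9 were lower in Fsc and none was 2-fold higher, against 6.99% and 7.97% of all genes. Of the 24 genes, 22 had ratios below 1, and the median log2 ratio was -0.91. Of 11 synthesis genes, 1, AOC1, was at least 2-fold lower, near the 6.99% of all genes. LOX2, which starts jasmonate synthesis in leaves, stood at 5989 FPKM in Sei-0 and 3274 FPKM in Fsc, 1.83-fold lower. AOC1 stood at 1021 and 476 FPKM, but is near-identical to AOC2, and the scaling to the same sum put it under 2-fold.

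VSP1, a storage protein and jasmonate marker, stood at 1936 FPKM in Sei-0 and 715 FPKM in Fsc. CLH1, a chlorophyllase induced by coronatine, stood at 2915 and 1256 FPKM, and JAZ6, a repressor that jasmonate itself induces, at 440.3 and 190.1 FPKM. NAC072 and NAC055, factors by which coronatine reopens stomata and lowers SA, were 2.34-fold and 2.13-fold lower. THI2.1, a thionin, had the lowest ratio of the list, at 38.5 FPKM in Sei-0 and 5.21 FPKM in Fsc. PDF1.2, a defensin that needs jasmonate and ethylene together, stood at 64.9 and 25.3 FPKM at 1 dpi, whereas at 3 dpi it stood at 168 FPKM in Sei-0 and 612 FPKM in Fsc. Of 10 ethylene genes, none passed 2-fold in either direction.

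Most genes for photosynthesis had ratios below 1, but few passed 2-fold. Of 42 genes for light harvesting and photosystems, 41 had ratios below 1, 4 were at least 2-fold lower, a share near the 6.99% of all genes, and the median log2 ratio was -0.64. LHCB2.2, an antenna protein of photosystem II, stood at 1028 FPKM in Sei-0 and 232 FPKM in Fsc, and LHCB2.1 at 539.5 and 232 FPKM. LHCB2.4 and LHCB3 were 6.41-fold and 2.09-fold lower. These genes are under the clock in Arabidopsis, and copies of the LHCB2 kind are near-identical. Genes of the Calvin cycle and photorespiration had 2 of 23 lower, again near the share of all genes, 20 of 23 ratios below 1 and a median log2 ratio of -0.44. With the groups scaled to the same sum, 1 of the 23 was lower and 1 higher. The lower ones were RCA, which activates Rubisco, at 2595 and 1223 FPKM, and FBA1, an aldolase, at 518 and 193 FPKM.

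Chlorophyll synthesis had 5 of 13 genes lower and 1 higher, against 6.99% and 7.97% of all genes. With the same sum 3 were lower and 1 higher. GUN4 and CHLH, which work at the magnesium branch point, stood at 151 and 249.9 FPKM in Sei-0 and 41.1 and 104 FPKM in Fsc. HEMA1, which catalyses the first committed step, was 2.83-fold lower. PORB, which reduces protochlorophyllide in the light, was the higher one, at 41.3 and 165 FPKM. Of 14 measured genes for chlorophyll breakdown and senescence, 1 was lower, near the 6.99% of all genes. It was DIN11, at 2.05 and 0.614 FPKM.

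Starch is built by day and broken down by night. Of 16 breakdown genes, 7 were higher in Fsc and 2 lower, against 7.97% and 6.99% of all genes. PHS2, a phosphorylase, stood at 33.5 FPKM in Sei-0 and 137 FPKM in Fsc, and GWD1, whose product phosphorylates starch to open it, at 33.1 and 91.4 FPKM. Also higher were PWD, ISA3, AMY3, DPE1 and PHS1, by 2.09 to 3.4-fold. BAM9, a catalytically inactive relative of the beta-amylases, stood at 29.4 FPKM in Sei-0 and 2.03 FPKM in Fsc, and BAM1 was 2.58-fold lower. In Fcs, PHS2 stood at 60.2 FPKM and GWD1 at 39.8 FPKM, nearer to Sei-0 than to Fsc.

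Of 16 starch synthesis genes, 3 were higher and 2 lower, against 7.97% and 6.99% of all genes. With the same sum 3 were higher and 1 lower. GBSS1, which makes amylose and is a direct clock target, stood at 150.2 FPKM in Sei-0 and 14.4 FPKM in Fsc, 10.5-fold lower. PGM1, APL2 and SS4 were 3.2-fold, 2.39-fold and 2.05-fold higher. Of 12 sugar transporter genes, 5 were lower and none was higher, against 6.99% and 7.97% of all genes. With the same sum 4 were lower and 1 higher. SWEET17, which carries fructose across the vacuole membrane, stood at 77.6 and 32.8 FPKM, and the hexose importer STP1 at 109 and 43.9 FPKM. STP13, an importer that competes with bacteria for sugar, stood at 225 FPKM in Sei-0 and 447 FPKM in Fsc, just under 2-fold.

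Phenylpropanoid and flavonoid genes, which make sunscreens and pigments, had 9 of 23 lower and 1 higher, against 6.99% and 7.97% of all genes. CHS, chalcone synthase, the entry to flavonoids, stood at 215 FPKM in Sei-0 and 36.1 FPKM in Fsc, 5.95-fold lower. The anthocyanin regulator PAP1 stood at 55.7 and 26 FPKM. UGT78D1, a flavonol rhamnosyltransferase, was the higher one, at 0.112 FPKM in Sei-0 and 6.99 FPKM in Fsc. It is another gene with a value near 0 in Sei-0. Light signalling and light stress genes had 7 of 15 lower and none higher, against the same shares. ELIP1, made under strong light, stood at 64.8 and 6.97 FPKM, and HY5, a light-signalling factor, at 26.6 and 11.1 FPKM.

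Smaller lists differed in how many genes passed 2-fold. Auxin genes had 4 of 11 lower and 1 higher, against 6.99% and 7.97% of all genes. The lower ones included GH3.5, which conjugates auxin and SA, at 9.96 and 2.3 FPKM, and IAA3 at 39.5 and 9.39 FPKM. Glutathione S-transferases had 2 of 10 higher, GSTU10 and GSTU1, against 7.97% of all genes. Of 9 measured heat shock genes and 8 genes for chaperones of the endoplasmic reticulum, none passed 2-fold. Among histone acetylation and DNA methylation genes, 3 of 10 were higher, against 7.97% of all genes. They were the DNA methyltransferases MET1 and CMT3 and the demethylase ROS1, at 1.68, 1.67 and 2.65 FPKM in Sei-0 and 3.71, 4.18 and 5.67 FPKM in Fsc.

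Flowering-time genes showed differences between the lines that held over days. FLC, the repressor of flowering that vernalisation silences, stood at 23.2 FPKM in Sei-0 and 1.69 FPKM in Fsc, with 9.3 FPKM in Col-0 and 2.45 FPKM in Fcs. MAF5, a relative of FLC, stood at 17.57 FPKM in Sei-0 and 2.17 FPKM in Fsc. At 3 dpi both were again lower in Fsc, with 15.5 and 1.25 FPKM for FLC. FRI, the activator of FLC, was 3.12-fold higher at 0.664 and 2.07 FPKM, as was MAF4, by 2.53-fold at 0.539 and 1.37 FPKM.

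The samples were labelled as leaves, and their markers matched that label: the mesophyll genes LHCB1.3 and RBCS1A were among the 5 most abundant genes of each group, and markers of flower (3), shoot meristem (2), seed (2) and xylem (2), like those of dividing cells (2), were all under 1 FPKM. Of the 4 mesophyll markers, all had ratios below 1, and RCA passed 2-fold, but not with the same sum. Of 3 guard cell markers, KAT1, a potassium channel, was 2.52-fold higher, at 11.4 FPKM in Sei-0 and 28.7 FPKM in Fsc, while FAMA and MYB60 were under 2-fold. The phloem markers SUC2 and APL and the epidermis marker ATML1 were within 1.5-fold of equality, the trichome marker GL2 was under 1 FPKM, and the root marker PYK10 stood at 8.31 and 6.26 FPKM. The part of the mesophyll and guard cell shifts in the results above was not tested. Of 8 control genes often used as references, 7 were under 2-fold, and UBQ10, a polyubiquitin gene made of repeats, was 2.52-fold higher, at 468 FPKM in Sei-0, 1177 FPKM in Fsc and 1331 FPKM in Col-0.

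Libraries of 2 and 3 dpi, none of them shared with 1 dpi, gave the same comparison on other days. At 2 dpi 8.7% of 17974 genes were higher and 5.85% lower, and at 3 dpi 11.4% of 18082 genes were higher and 11.1% lower. Of the 1429 genes higher at 1 dpi, 763 were higher at 2 dpi, which is 53.4% of the 1 dpi genes and 48.8% of the 1564 genes higher at 2 dpi. At 3 dpi 702 of them were higher, 49.1% of the 1 dpi genes and 34.2% of the 2055 genes higher at 3 dpi, and 127 were at least 2-fold lower. Of the 1254 genes lower at 1 dpi, 507 were lower at 2 dpi and 510 at 3 dpi. These are 40.4% and 40.7% of the 1 dpi genes, and 48.2% and 25.5% of the genes lower on the later days.

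Groups of genes differed in how long they kept their direction. The medians of the glucosinolate breakdown, NB-LRR, clock and AZI1 lists kept theirs. That of the NB-LRR list was small on later days, at 0.11 at 2 dpi and 0.12 at 3 dpi. In the morning clock list, 1 of 12 members was at least 2-fold higher in Fsc at 2 dpi and 1 at 3 dpi. HR4 stood at 7.01 and 408 FPKM at 2 dpi and 3.72 and 183 FPKM at 3 dpi. SA synthesis did not: its median log2 ratio was 0.57 at 1 dpi, -0.17 at 2 dpi and -0.37 at 3 dpi. ICS1 stood at 146 FPKM in Sei-0 and 102 FPKM in Fsc at 2 dpi, and at 56.6 and 22.3 FPKM at 3 dpi. PR1 stayed higher in Fsc, at 3625 and 6696 FPKM at 2 dpi and 693 and 1742 FPKM at 3 dpi. Light harvesting crossed the other way, with median log2 ratios of -0.64, -0.23 and 0.25, and jasmonate response went further down, with -0.91, -1.14 and -1.68.

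**Figure D4:**
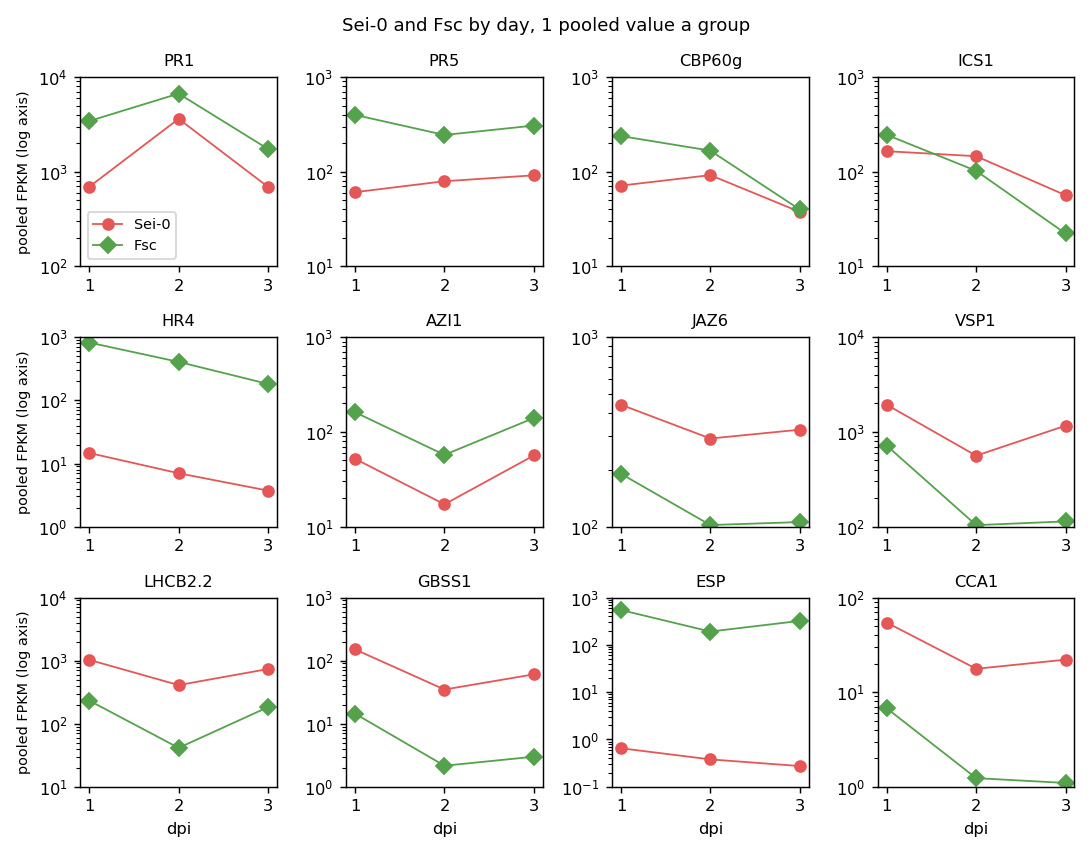
Pooled FPKM (y axis, log, with a separate range in each panel) of 12 genes at 1, 2 and 3 dpi (x axis) in Sei-0 (red circles) and Fsc (green diamonds), with 1 pooled value for each point. PR1, PR5, HR4, AZI1 and ESP are higher in Fsc on each day, JAZ6, VSP1, LHCB2.2, GBSS1 and CCA1 are lower on each day, and ICS1 is higher at 1 dpi and lower afterwards.

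The reciprocal hybrid Fcs was set against the same Sei-0 libraries at 1 dpi, where 8.76% of 17867 genes were higher and 7.85% lower. Because Sei-0 is shared, the values are given side by side only as a description. PR1 stood at 3725 FPKM in Fcs and 3437 FPKM in Fsc, CBP60g at 314 and 239 FPKM, and HR4 at 1191 and 825 FPKM. GRP7 stood at 872 FPKM in Fcs and 2342 FPKM in Fsc, and COR15B at 120.4 and 363 FPKM. Median log2 ratios to Sei-0 were 0.91 in Fcs and -0.10 in Fsc for chlorophyll breakdown and senescence. They were -1.03 and -0.44 for the Calvin cycle and photorespiration. These are not the only lists that differed, as glutathione S-transferases had 1.19 and 0.11. Other lists were close, such as the NB-LRR list with 0.30 and 0.26. The differences between the hybrids have no error attached and were not tested.

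**Figure D5:**
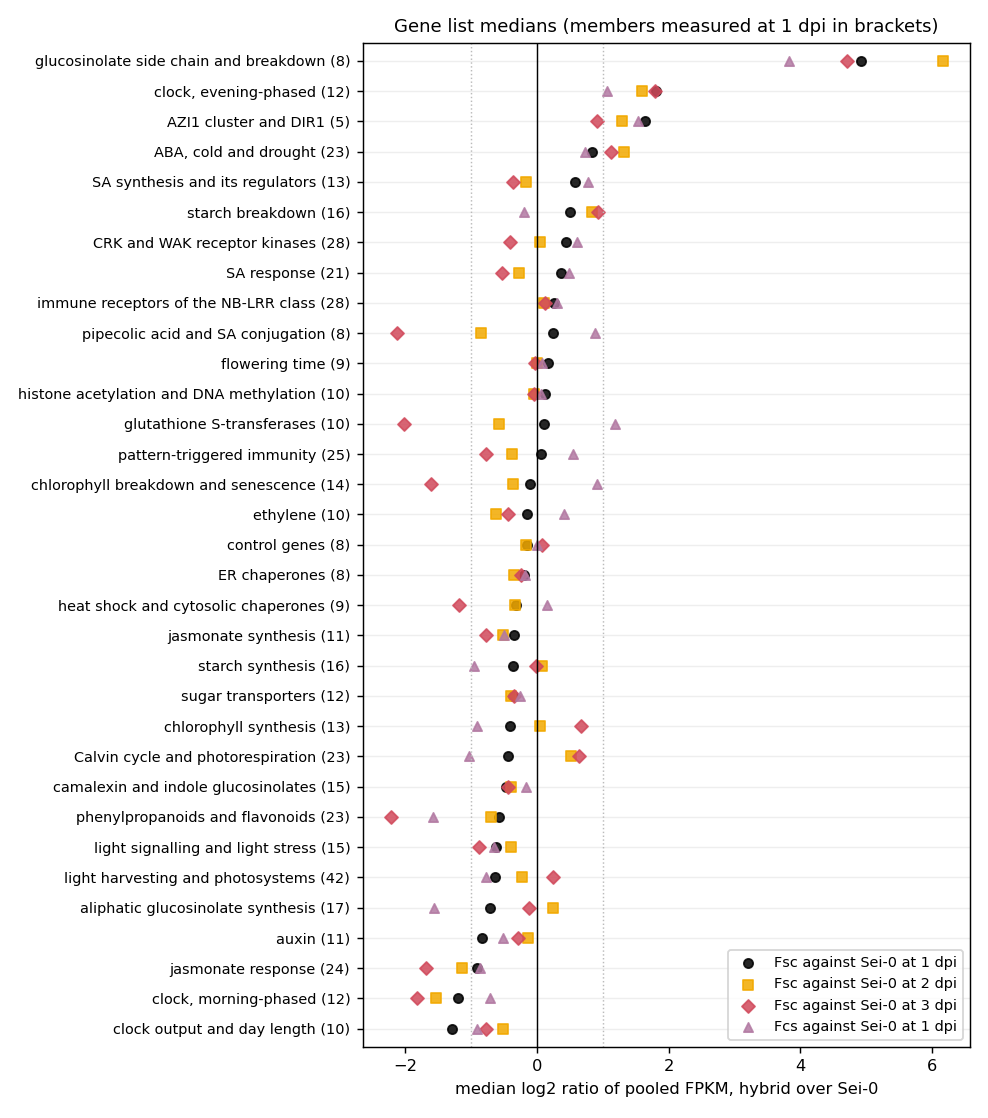
Median log2 ratio of hybrid to Sei-0 (x axis) for 33 gene lists (y axis, with the number of members measured at 1 dpi in brackets), for Fsc at 1 dpi (black circles), 2 dpi (orange squares) and 3 dpi (red diamonds) and for Fcs at 1 dpi (purple triangles); dotted lines mark 2-fold. Glucosinolate breakdown and evening clock genes lie farthest to the right for Fsc at 1 dpi, and clock outputs and morning clock genes farthest to the left.

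Genes called in either direction were spread over all 5 chromosomes, with 7.59% to 8.82% of genes higher and 6.55% to 7.92% lower on each. They were more frequent among rare transcripts. Of genes whose higher group stood between 1 and 5 FPKM, 15.9% were higher and 10.9% lower. Between 5 and 50 FPKM the shares were 5.96% and 5.26%, and at 50 FPKM or more they were 5.02% and 7.55%.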

How the data were processed

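Messenger RNA of infiltrated leaves was sequenced by the authors from 3 libraries in each of 12 groups (4 lines, 3 days). Per the labels and the methods, they aligned reads to TAIR10 with TopHat, which runs Bowtie, and assembled and quantified them with Cufflinks and Cuffdiff; tool versions are not given in the sources used here. The deposited values are FPKM pooled by the authors over the libraries of a group, 1 table a day. The tables also hold the authors' own fold changes, test statistics, p-values and q-values for pairs of groups, which were not used. The values hold no read counts per gene, so no count model was run. The paper's supplement lists the aligned amount for each library, which differed between the libraries of a group. The kit is not stated to keep strand, so overlapping genes may share reads. Chloroplast and mitochondrial genes (279) were listed at 0 in all groups.

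From these values the ratio Fsc/Sei-0 was computed for genes at 1 FPKM or more in either group, with no pseudocount, and 2-fold was the threshold. A gene listed at 0 in a single group counted as past it but got no ratio (110 in Sei-0, 33 in Fsc). The code of the call rule was checked on Sei-0 values with known fold changes put in, which left out genes with low values or 0. Such a check does not measure how reliable the calls are. Of 33557 IDs, 32810 matched RefSeq (TAIR10.1), and 32809 of these overlapped the deposited locus. The 43 gene lists (556 genes, 517 of them measured) came from general knowledge of Arabidopsis. The genes compared and the lists were chosen with earlier results of these data known. Named genes were 8 SA genes (ICS1, ICS2, EDS5, PAD4, EDS1, CBP60g, SARD1 and PR1), the 15 highest and 15 lowest log2 ratios of FPKM + 1 among genes at 10 FPKM or more, genes at 10 FPKM or more in a group and under 0.1 FPKM in the other, the 5 most abundant genes of each group, and members of each list: up to 5 past 2-fold with the highest FPKM, and any that the count of the list needed. Some members under 2-fold were named for contrast after their values were seen. Values of 1 gene and the promoter sequence of 1 other gene are not reported here. Analyses used Python 3.11.15, NumPy 2.4.6, pandas 2.3.3 and Matplotlib 3.10.9.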

Additional observations from a re-analysis of the deposited data

How the results depend on the processing

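No paired analysis was possible because the authors pooled the replicates of each group into a single value, and for the same reason no library could be left out. The counts of 1429 higher and 1254 lower genes depended on the rules for low values and on the threshold. A pseudocount of 1 gave 971 and 814, all genes above 0 FPKM gave 3507 and 2841, a minimum of 5 FPKM in either group gave 795 and 819, and a minimum of 1 FPKM in both groups gave 826 and 936. Thresholds of 1.5-fold and 4-fold gave 2596 and 2718, and 551 and 218. The counts stayed within 1.5 times with a pseudocount of 0.1, with 3 other scalings, and for protein-coding genes alone (1307 and 1149), a setting chosen after seeing the data. No named gene or list past 2-fold changed direction under a pseudocount of 1, a median ratio of 1 or the same sum. Of 538 named genes with a ratio, 60 moved by over 1.5 times or crossed 2-fold with the pseudocount, and 32 with the same sum. Among the list medians, the glucosinolate side chain and breakdown list moved to 3.18 with the pseudocount. With the same sum the morning clock list moved to -0.99, and the abscisic acid, cold and drought list to 1.05. Levels near 0 rest on an unknown and possibly small number of reads, and ratios to them are loose.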

Other observations

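Some named genes differed widely between the reciprocal hybrids, which have the same nuclear genome. They were singled out after their values were seen, and none of the differences was tested. ESP was higher in Fsc than in Fcs on each day, at 544 against 14.7 FPKM at 1 dpi, 191 against 3.07 FPKM at 2 dpi and 320.3 against 3.65 FPKM at 3 dpi, and its Fsc values were also above those of Col-0, 76.7, 31.5 and 32.2 FPKM. AT1G50290, a protein of unknown function on the same chromosome that was near 0 in Sei-0, had the same order, with 28.4 FPKM in Fsc, 2.47 FPKM in Fcs and 15.2 FPKM in Col-0 at 1 dpi, and 22.6, 3.81 and 14.3 FPKM at 3 dpi. For these 2 genes the hybrid with the Sei-0 mother had the higher level, although Sei-0 itself had almost none.

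For 3 further genes, also picked after their values were seen, Fcs had the higher level at 1 dpi. DIN6, an asparagine synthetase, stood at 28.9 FPKM in Sei-0, 33.7 FPKM in Fsc and 368 FPKM in Fcs at 1 dpi. DIN1, a senescence marker, stood at 12, 7.53 and 155 FPKM, and DIN10, which is related to raffinose synthases, at 6.49, 5.58 and 115 FPKM. At 2 dpi the Fcs values of these 3 genes were 34.1, 26.9 and 40.9 FPKM, against 43.2, 37.7 and 32.7 FPKM in Sei-0. Fcs was pooled by the authors from 3 libraries like every group, so it cannot be seen whether all 3 carried the high level.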
